A study of Mus musculus with 12 samples.

Results

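The genes examined encode the EphB receptors and the ephrin-B ligands, all members of the mouse family that were listed by symbol: the receptor genes Ephb1, Ephb2, Ephb3, Ephb4 and Ephb6 and the ligand genes Efnb1, Efnb2 and Efnb3. Each of the 8 symbols matched 1 Ensembl identifier among the 25674 in the deposited count table, and all 8 passed the filter on low counts. RNA came from spiral ganglion neurons, the primary auditory neurons linking the cochlea to the brainstem, of mouse embryos at E14.5. Per the labels' protocols, a library was made from 100 sorted cells of both inner ears of 1 embryo. The 6 control libraries came from Neurod1Cre;Rosa26tdTOM embryos and the 6 libraries labelled ISL1CKO from Neurod1Cre;Isl1loxP/loxP;Rosa26tdTOM embryos, so that Neurod1-Cre and the tdTomato reporter were shared by both groups and the floxed Isl1 alleles were not. ISL1 is a LIM-homeodomain transcription factor of these neurons. Cre was driven by a Neurod1 BAC transgene and cells were sorted on tdTomato, so the cells were those in which Neurod1-Cre had been active. Embryos of either sex on a mixed C57BL/6/sv129 background were used, and they came from several litters that the labels do not tie to samples.

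EphB receptors are receptor tyrosine kinases that bind ephrin-B ligands on neighbouring cells. Ephrin-B ligands span the membrane, so that contact signals in both directions: forward into the cell with the receptor and in reverse into the cell with the ligand. In the nervous system the pair is known for contact repulsion of growth cones, fasciculation, topographic mapping and synapse formation, and in blood vessels Efnb2 and Ephb4 mark arteries and veins. In the cochlea, ephrin-B2 of the neurons and EphA4 of the otic mesenchyme are known to take part in the bundling of spiral ganglion axons.

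The sequences before the start sites of Efnb2, Efnb1 and Ephb1 are shown because these 3 genes had the smallest p of the family in the comparison below. Each is the 250 bases before the RefSeq start on GRCm38.p6, read 5′ to 3′ on the strand of the gene, with matches to the E-box CANNTG in capitals, the motif class bound by NEUROD1 and related factors.
Efnb2 at chr8:8661243-8661492, minus strand: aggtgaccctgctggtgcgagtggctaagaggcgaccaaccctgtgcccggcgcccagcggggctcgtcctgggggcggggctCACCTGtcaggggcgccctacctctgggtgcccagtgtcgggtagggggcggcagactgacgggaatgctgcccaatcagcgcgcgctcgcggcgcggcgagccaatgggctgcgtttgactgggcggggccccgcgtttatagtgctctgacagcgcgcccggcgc
Efnb1 at chrX:99135811-99136060, plus strand: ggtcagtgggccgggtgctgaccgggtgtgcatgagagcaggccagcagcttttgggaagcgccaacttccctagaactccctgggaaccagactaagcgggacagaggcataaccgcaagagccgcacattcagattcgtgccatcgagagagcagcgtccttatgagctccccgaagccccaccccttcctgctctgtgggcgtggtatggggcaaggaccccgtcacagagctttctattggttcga
Ephb1 at chr9:102354694-102354943, minus strand: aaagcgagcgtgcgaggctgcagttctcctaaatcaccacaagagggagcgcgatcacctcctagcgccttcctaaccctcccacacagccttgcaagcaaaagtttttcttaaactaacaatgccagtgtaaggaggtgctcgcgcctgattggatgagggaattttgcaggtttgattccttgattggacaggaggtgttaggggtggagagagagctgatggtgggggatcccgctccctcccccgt
An E-box was found in the Efnb2 window (1 match) and none in the other two. The homeodomain core TAAT, searched on both strands, had 0 matches in all 3 windows. Of 32851 RefSeq promoters of the same length, 66.2% held an E-box and 54.9% held TAAT, so neither presence nor absence sets these windows apart. The Efnb2 window had a GC content of 72%, that of Efnb1 60% and that of Ephb1 54%, beside a median of 52.4% over all promoters. RefSeq windows were found for 7 of the 8 genes, the exception being Efnb3.

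Total counts ran from 11895603 to 13857480 per library, and 3 counts, the floor used here, corresponded to 0.219 to 0.250 CPM. CPM is a gene's count relative to the scaled size of its library. Of the 10 neuron markers examined, all 10 were detected, with summed levels of 14100 to 15800 CPM in controls, against 11500 to 14000 CPM in the libraries with the ISL1CKO label. These sums did not overlap, and 5 of the markers were called: Nefl, Nefm and Gata3 were lower and Stmn2 and Neurod1 higher. Over all genes tested 10.2% were called, the share to set beside these and the marker calls below. Isl1 itself was at 1538 ± 217 CPM in controls, against 1391 ± 184 CPM under the ISL1CKO label (SD, n = 6), and was not called in the quasi-likelihood F-test of edgeR (Benjamini-Hochberg adjusted p = 0.460). Counts over the whole gene do not show whether the floxed segment was removed, so the genotype rests on the labels. Libraries ISL1CKO 2, 3 and 5 held transcripts of both sexes, with Xist at 62.9 to 132 CPM and a mean of 4 Y-linked genes at 35.7 to 87.3 CPM, which is at odds with a library of 1 embryo, so n counts libraries as labelled. Results are also given without these 3. Endothelial markers, of which 9 of 10 had a row, summed to 0.512 to 3.26 CPM in controls, against 0.762 to 35.1 CPM under the ISL1CKO label, the highest being ISL1CKO 3. Most of that highest sum was 1 gene, Kdr, at 27.7 CPM, and none of the 9 passed the filter on low counts. Schwann cell and satellite glia markers summed to 31.9 to 186 CPM and 35.0 to 260 CPM, and macrophage markers to 1.92 to 408 CPM and 1.53 to 657 CPM. Mesenchyme markers, all 10 with a row, summed to 38.5 to 85.0 CPM in controls, against 71.8 to 122 CPM under the ISL1CKO label. Of the 4 tested, Tbx18 and Col3a1 were called higher and the other 2 were not called. Tbx18 went from 1.09 ± 1.45 to 39.5 ± 10.0 CPM (SD, n = 6). That rise was larger than the rise of the median sum, from 61.2 to 87.0 CPM. Pou3f4, the highest of the list in controls, went the other way, from 52.9 ± 16.4 to 27.4 ± 13.4 CPM (SD, n = 6; edgeR adjusted p = 0.143). Hair cell markers, 7 of 8 with a row, summed to 13.0 to 57.2 CPM and 5.07 to 20.3 CPM. The control sums were mostly Ccer2, which went from 36.8 ± 13.6 to 3.83 ± 2.46 CPM (SD, n = 6) and was called lower. The other 2 that were tested, Myo7a and Otof, were not called. The part of the mesenchyme and hair cell lists in the differences of the family was not tested. Among the called markers, exons of Nefl, Nefm, Gata3, Neurod1, Tbx18 and Ccer2 overlap a gene on the opposite strand, for Tbx18 by 970 bases. The use of strand in counting is not stated, so their counts are uncertain to that extent.

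Ligand mRNA exceeded receptor mRNA in these neurons. Per kilobase of annotated exon, Efnb2 was the highest of the family in controls at 26.3 ± 6.23 CPM per kb, followed by Efnb1 at 12.3 ± 0.273 and Efnb3 at 3.88 ± 1.54 (SD, n = 6). Among the receptors Ephb6 was at 2.87 ± 0.716 and Ephb2 at 2.49 ± 0.641 CPM per kb, a pair that did not differ beyond its spread (SD, n = 6), and Ephb6 was also within the spread of Efnb3. Ephb1 followed at 0.856 ± 0.509, Ephb3 at 0.614 ± 0.577 and Ephb4 at 0.248 ± 0.142 CPM per kb, each within the spread of its neighbour in that order (SD, n = 6). The summed receptor level was 7.08 ± 1.78 CPM per kb in controls and 7.22 ± 2.43 in libraries labelled ISL1CKO (SD, n = 6). The summed ligand level was 42.5 ± 7.17 and 34.8 ± 6.60 CPM per kb (SD, n = 6), and the groups overlapped in both sums. In libraries labelled ISL1CKO the order was Efnb1 at 16.9 ± 6.26, Efnb2 at 13.2 ± 2.62, Efnb3 at 4.70 ± 0.923, Ephb2 at 2.42 ± 0.498, Ephb6 at 2.17 ± 1.65, Ephb1 at 2.07 ± 0.957, Ephb4 at 0.344 ± 0.148 and Ephb3 at 0.221 ± 0.251 CPM per kb (SD, n = 6). Efnb2 lay within the spread of Efnb1 there, Ephb2, Ephb6 and Ephb1 within each other's spread, and likewise Ephb4 and Ephb3. With the length of the longest protein-coding transcript in place of all exons, Efnb2 stayed ahead of Efnb1 in that group, at 18.8 and 17.9 CPM per kb. The receptor order changed as well, with Ephb1 at 3.10, Ephb2 at 2.80 and Ephb6 at 2.17 CPM per kb in that group. In controls Ephb2 was then at 2.883 and Ephb6 at 2.873 CPM per kb.

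The comparison asks which of these genes differed between the genotypes as labelled. Efnb2 was lower in libraries labelled ISL1CKO, at 0.5 of its control level, and was the only one of the 8 genes past an adjusted p of 0.05. The other 7 did not pass: Ephb1 and Efnb1 had the next smallest p, both with higher means in libraries labelled ISL1CKO. Of 14813 genes tested, 10.2% were called in either direction, 5.19% lower and 5.01% higher, so 1 call among 8 genes is near the background share. The median log2 ratio was -0.04 over the 5 receptor genes and 0.27 over the 3 ligand genes, beside 0.0045 over all genes tested. With so few genes these medians are the values of Ephb2 and Efnb3, neither of which was called. They do not show a shift of either list. In sorted pools, fewer cells with a transcript and less RNA per cell cannot be told apart.

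Efnb2 (ENSMUSG00000001300, chromosome 8, 8617434 to 8661242, minus strand, GRCm38, protein coding) encodes ephrin-B2, the ligand of EphB4 and of the neuronal EphB receptors. Its level in control replicates 1 to 6 was 130, 178, 252, 175, 199 and 148 CPM. In ISL1CKO replicates 1 to 6 it was 84.2, 83.3, 86.3, 86.8, 75.1 and 126 CPM. Every control library lay above every library labelled ISL1CKO, although control 1 and ISL1CKO 6 were close. Groups that do not overlap were found for 6.78% of all genes tested, and Efnb2 was the 1 member with that property. The means were 180 ± 42.7 and 90.2 ± 17.9 CPM (SD, n = 6), which is a log2 ratio (libraries labelled ISL1CKO over controls) of -0.999 (SE 0.16) with a 95% interval of -1.33 to -0.66 (edgeR adjusted p = 0.000705). Without the 3 libraries that held transcripts of both sexes the log2 ratio was -0.87 (edgeR adjusted p = 0.0340), and with Schwann cell and macrophage marker levels as covariates it was -0.81 (edgeR adjusted p = 0.0192). Arterial endothelium is another known source of Efnb2, and with the endothelial marker level as a covariate the log2 ratio was -0.97 (edgeR adjusted p = 0.00293). None of those markers passed the filter on low counts, so this covariate cannot show what part endothelial RNA had, which was not tested. The summed neuron markers were lower in the same libraries as Efnb2, with medians of 14500 CPM in controls and 12700 CPM under the ISL1CKO label. Nefm alone fell by more than that, from 3337 ± 377 to 881 ± 424 CPM (SD, n = 6). Nefl and Gata3 were also called lower, and Stmn2 and Neurod1 higher, so the sum does not stand for all neuron markers. The part of these markers in the Efnb2 difference was not tested.

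Efnb1 (ENSMUSG00000031217, chromosome X, 99136130 to 99148991, plus strand) encodes ephrin-B1, the X-linked ligand. Control replicates 1 to 6 held 40.9, 41.9, 43.6, 42.3, 42.9 and 42.7 CPM, a spread of 0.942 CPM (SD, n = 6). ISL1CKO replicates 1 to 6 held 37.5, 58.7, 30.0, 83.1, 80.2 and 60.6 CPM. Thus 4 libraries labelled ISL1CKO lay above all controls and the other two below all controls. The log2 ratio was 0.46 (SE 0.21) with a 95% interval of 0.013 to 0.91, which did not pass after adjustment (edgeR adjusted p = 0.201). The lowest of the libraries labelled ISL1CKO was ISL1CKO 3, the one with the highest endothelial marker sum, most of it Kdr. Without that library the log2 ratio was 0.60 (edgeR adjusted p = 0.0391), and with the endothelial marker level as a covariate it was 0.67 (edgeR adjusted p = 0.0297). Leaving out the lowest library raises the ratio by construction. Because the same library had the highest endothelial sum, these values may not be independent. Without ISL1CKO 4 or ISL1CKO 5, the highest libraries, the log2 ratio was 0.33 and 0.35 (edgeR adjusted p of 0.386 and 0.383). With Schwann cell and macrophage marker levels as covariates it was 0.30 (edgeR adjusted p = 0.610), and over all 22 alternatives the adjusted p ran from 0.0297 to 0.610. The 3 libraries with transcripts of both sexes held 30.0, 58.7 and 80.2 CPM, the range of the other 3 being 37.5 to 83.1 CPM. Leaving them out gave a log2 ratio of 0.51 (edgeR adjusted p = 0.210).

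Efnb3 (ENSMUSG00000003934, chromosome 11, 69554092 to 69560205, minus strand) encodes ephrin-B3, known from the spinal cord and forebrain midline. Control libraries held 6.89 to 18.5 CPM with a median of 10.8, and libraries labelled ISL1CKO 10.6 to 18.1 CPM with a median of 15.2. The ranges overlapped almost fully, and the log2 ratio of 0.27 had a 95% interval of -0.28 to 0.83 (edgeR adjusted p = 0.585). Without ISL1CKO 2, 3 and 5 it was 0.24 (edgeR adjusted p = 0.803).

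**Figure D1:**
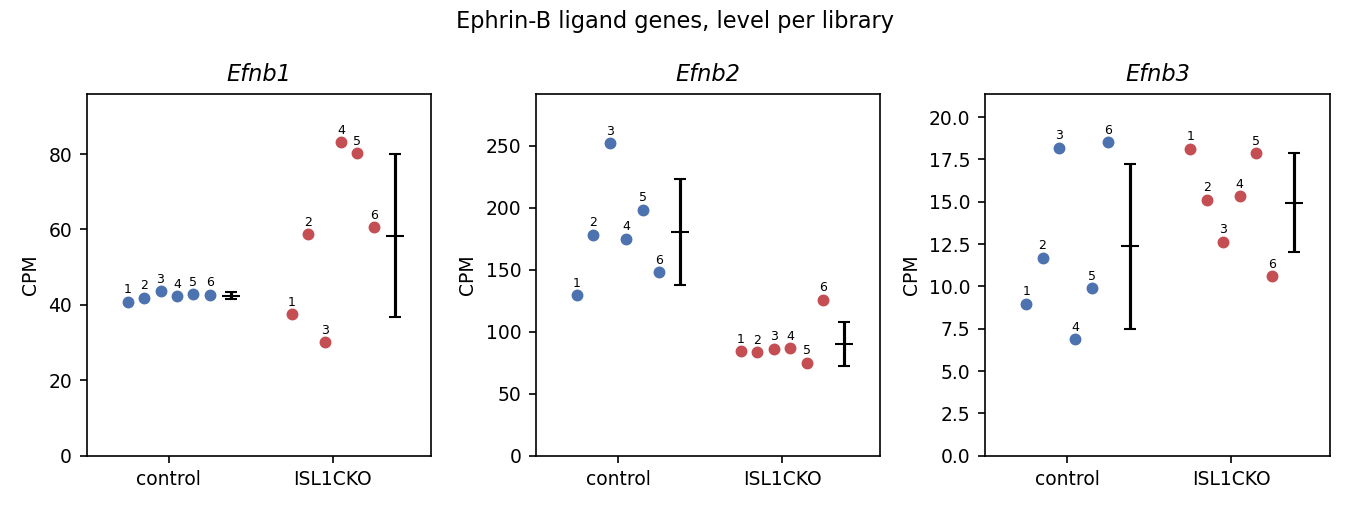
Level of each ephrin-B ligand gene in CPM, with 1 point per library numbered by replicate and the mean ± SD (n = 6) beside each group. All 6 control libraries lie above all 6 libraries labelled ISL1CKO for Efnb2, the Efnb1 controls sit within 40.9 to 43.6 CPM, and the Efnb3 groups overlap.

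The mix of ligand transcripts differed along with Efnb2. Efnb2 made up 54.3% to 66.7% of the summed ephrin-B level per kilobase in control libraries and 27.5% to 49.8% in libraries labelled ISL1CKO. Efnb1 averaged 29.5% ± 4.08 and 47.2% ± 10.1 of it, and Efnb3 9.10% ± 3.18 and 13.9% ± 3.81 (SD, n = 6). The ratio of Efnb1 to Efnb2 was 0.344 to 0.626 in controls and 0.691 to 2.12 in libraries labelled ISL1CKO. It exceeded 1 in 3 of the 6 libraries labelled ISL1CKO (replicates 2, 4 and 5) and in 0 controls, also with the longest coding transcripts as lengths. These shares and ratios carry the Efnb2 difference within them and were given no test of their own.

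**Figure D2:**
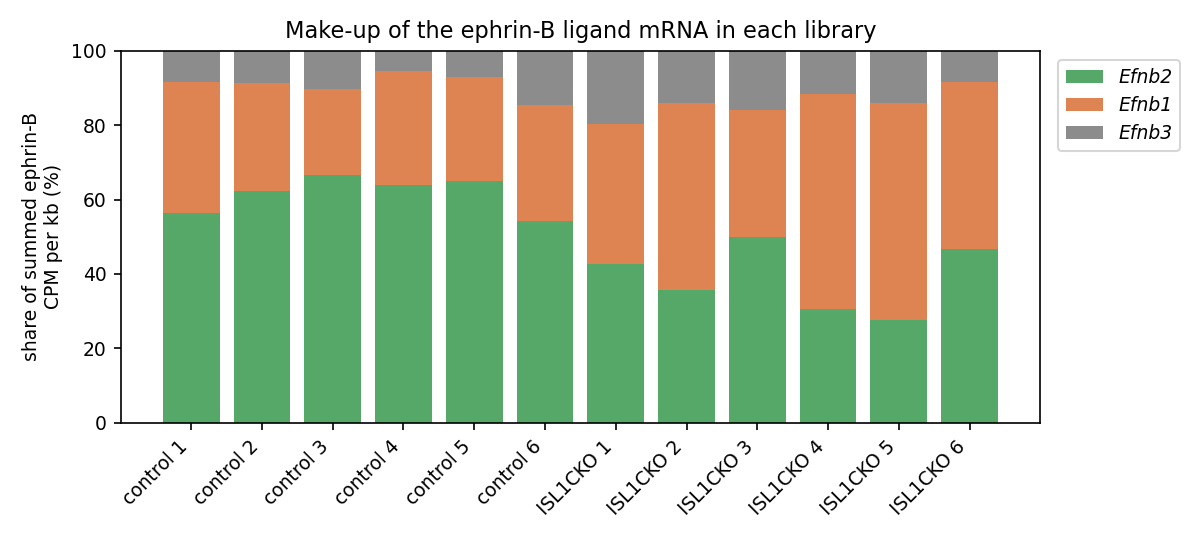
Share in percent of the 3 ephrin-B genes in their summed CPM per kilobase of exon, with 1 bar per library. The Efnb2 share is above 54% in each control bar and below 50% in each ISL1CKO bar.

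None of the 5 receptor genes passed the adjusted threshold in edgeR's test, and 1 of them, Ephb1, had an unadjusted p under 0.05, beside 23.3% of all genes tested. Ephb1 (ENSMUSG00000032537, chromosome 9, 101922128 to 102354693, minus strand) encodes a receptor known for routing retinal axons at the optic chiasm. Its level in control replicates 1 to 6 was 12.0, 4.51, 3.92, 8.74, 2.93 and 3.88 CPM, and in ISL1CKO replicates 1 to 6 it was 20.8, 6.75, 13.9, 9.49, 24.1 and 11.8 CPM. The groups overlapped through control 1 and control 4 at the top of the controls. The log2 ratio was 1.27 (SE 0.40) with a 95% interval of 0.42 to 2.12 (edgeR adjusted p = 0.0577). Single libraries decided the call, since without control 1 it was 1.59 (edgeR adjusted p = 0.0197) and without ISL1CKO 2 it was 1.41 (edgeR adjusted p = 0.0413). The DESeq2 Wald test also called it (adjusted p = 0.0141), whereas with ISL1CKO 2, 3 and 5 left out the edgeR adjusted p was 0.196. Exons of Ephb1 overlap 152 bases of Gm26846 on the opposite strand, and because the use of strand in counting is not stated its counts are uncertain to that extent.

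Ephb2 (ENSMUSG00000028664, chromosome 4, 136647539 to 136835988, minus strand) encodes a receptor of growth cones and of excitatory synapses, where it binds NMDA receptors. It held 18.1 to 39.2 CPM with a median of 33.1 in controls and 21.8 to 40.2 CPM with a median of 30.3 in libraries labelled ISL1CKO. The groups shared nearly the same range, and the log2 ratio of -0.04 had a 95% interval of -0.46 to 0.38 (edgeR adjusted p = 0.927). Leaving out ISL1CKO 2, 3 and 5 gave 0.088 (edgeR adjusted p = 0.910).

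Ephb6 (ENSMUSG00000029869, chromosome 6, 41605482 to 41620509, plus strand) encodes a receptor whose kinase domain lacks catalytic activity. Control libraries held 6.73 to 14.54 CPM with a median of 11.5, and libraries labelled ISL1CKO 1.79 to 19.2 CPM with a median of 7.004. The groups overlapped, with ISL1CKO 1 above every control and 3 libraries labelled ISL1CKO below every control. The log2 ratio was -0.40 with a 95% interval of -1.34 to 0.53 (edgeR adjusted p = 0.641), and with ISL1CKO 2, 3 and 5 left out it was -0.32 (edgeR adjusted p = 0.850).

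The 2 scarcest receptors gave wide intervals. Ephb3 (ENSMUSG00000005958, chromosome 16, 21204755 to 21223305, plus strand) encodes a receptor known for commissural axons and intestinal crypts. It held 0.889 to 11.6 CPM with a median of 2.92 in controls, where control 1 was the highest, and 0 to 3.64 CPM with a median of 0.743 in libraries labelled ISL1CKO. ISL1CKO 2 had 0 counts and ISL1CKO 6 had 2 counts, both under the floor of 3 counts. The log2 ratio of -1.47 had a 95% interval of -3.34 to 0.40 (edgeR adjusted p = 0.345). It was -0.82 without control 1 (edgeR adjusted p = 0.656) and -0.75 without ISL1CKO 2, 3 and 5 (edgeR adjusted p = 0.763). Ephb4 (ENSMUSG00000029710, chromosome 5, 137350109 to 137378669, plus strand) encodes the receptor of venous endothelium. It held 7 to 29 counts per library in controls and 9 to 32 counts in libraries labelled ISL1CKO, or 1.15 ± 0.657 and 1.598 ± 0.685 CPM (SD, n = 6). Its log2 ratio of 0.47 had a 95% interval of -0.58 to 1.51 (edgeR adjusted p = 0.626), and without ISL1CKO 2, 3 and 5 it was 0.11 (edgeR adjusted p = 0.964). Ephb4 shares 33 bases of exon with Zan on the opposite strand, so reads of the pair cannot be told apart there.

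**Figure D3:**
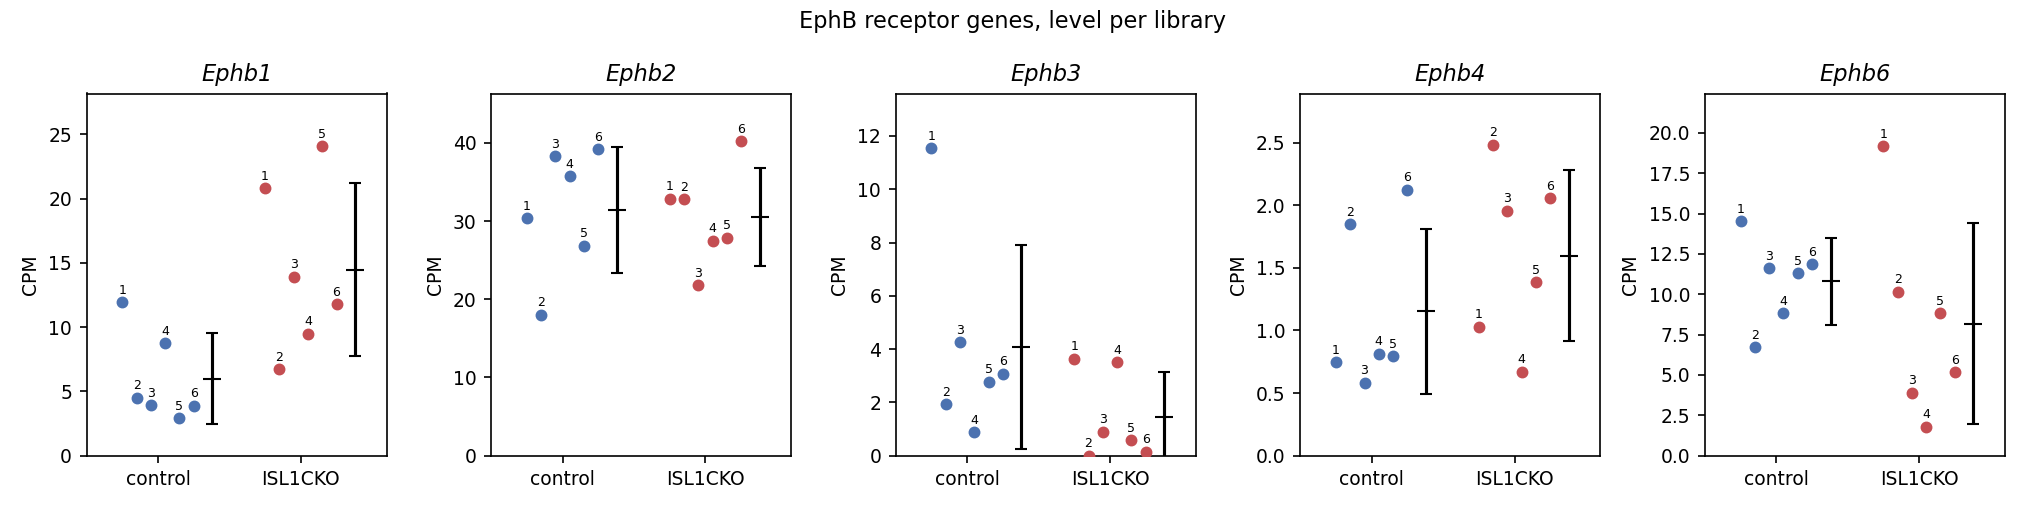
Level of each EphB receptor gene in CPM, with 1 point per library numbered by replicate and the mean ± SD (n = 6) beside each group, error bars being cut at 0. The groups overlap in all 5 panels, and for Ephb1 the libraries labelled ISL1CKO run from 6.75 to 24.1 CPM against 2.93 to 12.0 CPM in controls.

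By the mean absolute difference of log2 CPM over the 12 libraries, each gene centred on its own mean, the protein-coding genes with the pattern most like Efnb2 were Rnf32 (0.155), Bicd2 (0.162) and Ank3 (0.185). Their log2 ratios were -1.07, -0.73 and -0.80. The group difference of Efnb2 is part of the pattern they were picked by, so their lower level follows from the choice.

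The products of 2 A-class genes bind across classes, and both genes changed. Epha4, whose receptor also binds ephrin-B2 and ephrin-B3, went from 151 ± 29.6 to 57.7 ± 14.53 CPM, and Efna5, whose product also binds EphB2, from 47.0 ± 8.85 to 244 ± 52.1 CPM (SD, n = 6), with log2 ratios of -1.39 and 2.37 (edgeR adjusted p of 0.000119 and 2.19e-07). Other genes of the pathway were taken from lists of signalling partners, 67 genes together with Epha4 and Efna5. Of the 63 tested, 10 passed an adjusted p of 0.05, 6 lower and 4 higher, which is 15.9% beside 10.2% of all genes. Epha4 and Efna5 are among the 10, and the lists were chosen with earlier results of these data known. The share is therefore no result about the pathway, and its difference from the background was not tested.

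Among 12 cytoplasmic partners of the ephrin-B and EphB tails, all tested, 2 were lower, 1 was higher and 9 did not pass. That is 25% of a short list, beside 10.2% of all genes. Grip1, a PDZ scaffold that binds the ephrin-B tail, went from 90.6 ± 21.8 to 34.4 ± 9.43 CPM (SD, n = 6), with a log2 ratio of -1.40 (edgeR adjusted p = 0.000258). Sdcbp, which encodes syntenin-1, another PDZ protein that binds that tail, went the other way, from 157 ± 66.9 to 609 ± 75.7 CPM (SD, n = 6), with a log2 ratio of 1.96 (edgeR adjusted p = 6.63e-05). Stat3, a transcription factor recruited in ephrin-B reverse signalling, had a log2 ratio of -0.54 (edgeR adjusted p = 0.0302). The groups did not overlap for these 3 genes, which were named for their small p, beside 6.78% of all genes tested. The Stat3 call was lost without ISL1CKO 5, control 2 or control 4 (edgeR adjusted p of 0.0569, 0.0557 and 0.0612) and with the endothelial covariate (edgeR adjusted p = 0.0760).

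Of 18 tested adaptor and kinase genes, 2 were lower and 0 higher, a share of 11.1%, near the 10.2% of all genes. Shb, an SH2-domain adaptor, went from 98.0 ± 15.1 to 36.1 ± 12.2 CPM (SD, n = 6), with a log2 ratio of -1.44 (edgeR adjusted p = 0.000241). Crk, an adaptor that couples receptors to exchange factors of small GTPases, had a log2 ratio of -0.45 (edgeR adjusted p = 0.00377). Of 9 tested proteases and phosphatases 11.1% were called: Adam17, a sheddase of membrane proteins, was higher, with a log2 ratio of 0.68 (edgeR adjusted p = 0.0114). Of 4 tested membrane partners 25% were called, beside 10.2% of all genes. The called gene was Grin2a, an NMDA receptor subunit, which was lower, at -1.17 (edgeR adjusted p = 0.00241), with groups that overlapped. Adam10, the metalloprotease tied to ephrin shedding, was at 180 ± 25.7 and 173 ± 39.4 CPM (SD, n = 6; edgeR adjusted p = 0.872). Without ISL1CKO 2, 3 and 5, 6 partner genes were called, 5 of them among the 10 called with all libraries. The other, Ptpn13, a phosphatase that binds the ephrin-B tail, had a log2 ratio of -1.44 (edgeR adjusted p = 0.0489) there. Of the 5 calls that were lost, Crk, Adam17, Grin2a and Stat3 had edgeR adjusted p of 0.0601, 0.0646, 0.0824 and 0.138. With Schwann cell and macrophage covariates the adjusted p of Adam17 was 0.157. Exons of Sdcbp, Stat3, Adam17 and Ptpn13 overlap a gene on the opposite strand.

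**Figure D4:**
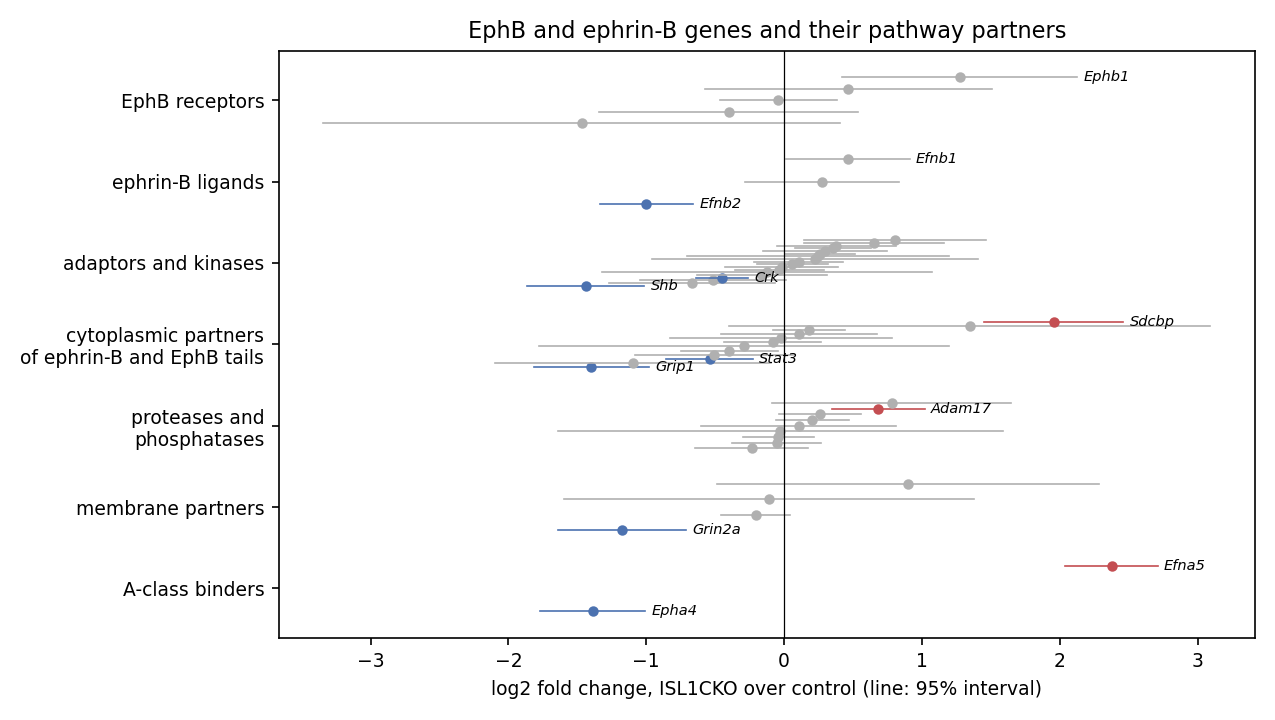
Log2 ratio of libraries labelled ISL1CKO over controls with its 95% interval, for the 8 family genes and the tested partner genes of 5 lists, blue where called lower, red where called higher and grey where not called. Efnb2 is the only coloured point among the family genes, and Grip1 and Sdcbp lie on opposite sides of 0.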

How the data were processed

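The authors deposited 1 table of whole-number counts per Ensembl gene, not normalized, for 12 libraries. The submitters' processing notes name cutadapt 1.18, Bowtie 1.2.2, STAR 2.7.0c, featureCounts and GRCm38.p6. Their order and options, the annotation and the use of strand are not given in the sources used here. Columns were matched by group word and number, with 0 left unmapped. Symbols, coordinates and exon lengths are those of GENCODE M21 on GRCm38, and promoters are from RefSeq. Genes were kept by filterByExpr (minimum count 10) and scaled by TMM, and genotypes were compared with the robust quasi-likelihood F-test of edgeR 4.0.16 in R 4.3.3, with no covariate and Benjamini-Hochberg adjustment over 14813 genes. A standard error is the absolute log2 fold change over the square root of F, and 95% intervals use the test's degrees of freedom. Alternatives used DESeq2 1.42.0, limma 3.58.1, other scalings and filters, covariates and left-out libraries. A tag calls the numbers technical replicates and the design text biological ones, so p-values measure the spread between these libraries. No pair of libraries agreed within sampling noise. Floors cover counting error only, as reads carry no molecular identifiers.

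The members, gene lists and alternatives were chosen with earlier results of these data known. The named genes were the 8 members, Isl1, Epha4, Efna5, up to 3 called genes per partner list with the smallest p, and the 3 genes most like each called member. Adam10, Ptpn13, the called marker genes, Gm26846 and Zan were named in addition, after their values were seen. One partner list is counted in the partner totals and is not reported here.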

Additional observations from a re-analysis of the deposited data

Results flagged for a closer look

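Dixon's test for a single distant library was applied to 22 sets of 6 log2 CPM values and marked 2 of them, and about 1.1 would be marked by chance. The gap to the nearest value over the range was 0.721 for Efnb2 and 0.627 for Isl1, beside a critical value of 0.625. The Isl1 mark was thus marginal. Efnb2 was at 126 CPM in ISL1CKO 6 and at 75.1 to 86.8 CPM in the other libraries labelled ISL1CKO. Without ISL1CKO 6 the Efnb2 log2 fold change was -1.12 (edgeR adjusted p = 0.000259). Isl1 was at 1050 CPM in ISL1CKO 1 and at 1360 to 1590 CPM in the other 5.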

How the results depend on the processing

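Efnb2 stayed lower and past the adjusted threshold in all 22 alternatives, with log2 fold changes from -1.12 to -0.81 and adjusted p from 3.34e-08 to 0.0340. The count of called members was 2 in place of 1 with a mean of at least 5 CPM and with the DESeq2 Wald test, where Ephb1 joined, and also 2 with the endothelial covariate, where Efnb1 joined. It ran from 1 to 2 with 1 library left out, the second gene being Ephb1 without ISL1CKO 2 or control 1 and Efnb1 without ISL1CKO 3. Ephb2, which was not called in any setting, changed sign: its log2 fold change was 0.0483 with limma-voom, 0.0962 with the endothelial covariate, 0.0884 without ISL1CKO 2, 3 and 5, and -0.168 to 0.0377 with 1 library left out. Over all genes, 970 were called with Schwann cell and macrophage covariates and 767 without ISL1CKO 2, 3 and 5, against 1511, and 6 partner genes were called without these 3 libraries, against 10. The cause of these changes was not tested. Ephb3 and Ephb4 did not reach a mean of 5 CPM and had no value there. The replicate numbers did not pair the samples: same-numbered libraries correlated at -0.056 to 0.152 in their deviations from the group means, and 2 of 6 correlated best with their own number. With the replicate number as a block, 1450 genes were called, 1 member (Efnb2 at -0.99, adjusted p = 0.00544) and 10 partner genes. Counts were lowest for Ephb3 and Ephb4, at most 139 and 32 in a library, where counting alone gives an SD of 0.573 and 0.296 CPM in controls, beside observed SDs of 3.83 and 0.657 CPM.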

Other observations

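The spread of some members differed between the groups more than their means did. Efnb1 had a coefficient of variation of 2.22% in controls, where its SD of 0.942 CPM was under the 1.82 CPM that counting alone gives, and of 37% in libraries labelled ISL1CKO, where the SD of 21.6 CPM was far above the counting SD of 2.10 CPM. For Ephb6 the coefficient of variation was 25% in controls and 76% in libraries labelled ISL1CKO. For Efnb2 it was 23.7% and 19.9%, and for Ephb2 25.7% and 20.6%. These differences in spread were seen after the values and were not tested.

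Control 1 was at the edge of the control range for several members. It had the highest Ephb1, Ephb3 and Ephb6 of the 6 controls, at 12.0, 11.6 and 14.54 CPM, and the lowest Efnb1 and Efnb2, at 40.9 and 130 CPM. The same library had the highest summed macrophage markers of the controls, at 408 CPM, the lowest summed hair cell markers, at 13 CPM against 50.8 to 57.2 CPM, and the lowest Isl1, at 1171 CPM. In controls the hair cell sum was mostly 1 gene, Ccer2, at 36.8 ± 13.6 CPM (SD, n = 6). The part of these markers and of Isl1 in the Eph values of control 1 was not tested.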
